A study of Mus musculus with 8 samples.

Results

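The Serpin family on these arrays comprised all non-control probes whose gene name in the deposited files began with Serpin, and is reported here for 71 probes of 54 genes, among 41174 non-control probes. Of these, 27 probes passed the filter on dim signal and 24 genes were tested, among 16362 genes in all. The 8 arrays measured whole-tissue RNA from mouse salivary gland tumours induced by AKT and from normal salivary glands. Untreated tumour had 2 arrays, tumour after 3 days of rapamycin had 1, tumour after 14 days of rapamycin had 2, normal parotid gland without treatment had 2 and normal submandibular gland without treatment had 1. Rapamycin inhibits mTOR complex 1, a kinase complex downstream of AKT. The construct, promoter and cell type that carried AKT, and the strain, age and rapamycin dose, were not given in the sources used here. The labels do not tie the arrays to separate animals, so p-values measure the spread between these samples, which may be technical.

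Serpins are protease inhibitors with a common fold. The protease cuts an exposed loop of the inhibitor, the serpin springs into a new shape, and the enzyme is left covalently trapped. Clade A members such as antitrypsin circulate in plasma or are secreted by epithelia, clade B members stay mostly inside the cell and guard it against proteases of granules and lysosomes, and clade E members hold plasminogen activators and thrombin in check. A few family members, among them the collagen chaperone Serpinh1, keep the fold without inhibiting a protease. In mice, the clade A genes of chromosome 12 and the clade B genes of chromosomes 1 and 13 lie in tandem arrays of close relatives, so probes for the Serpina1, Serpina3, Serpinb6 and Serpinb9 groups can share signal with a near-identical neighbour.

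The 250 bases before the start site are printed for 6 members whose levels differed between untreated and day 14 tumours, to show the sequence in front of a gene that was high in tumour (Serpina11) and of 5 that were high at day 14. They come from RefSeq on GRCm38.p6, 5' to 3' on the strand of the gene. The capitals mark matches to TTCNNNGAA, the palindrome bound by STAT factors, searched on both strands. The windows lie at chr12:103989958-103990207 (minus strand) for Serpina11, chr12:104235897-104236146 (plus) for Serpina3g, chr13:34002795-34003044 (minus) for Serpinb6a, chr13:32940601-32940850 (minus) for Serpinb1c, chr13:32965011-32965260 (plus) for Serpinb6b and chr13:33004291-33004540 (plus) for Serpinb9.
Serpina11: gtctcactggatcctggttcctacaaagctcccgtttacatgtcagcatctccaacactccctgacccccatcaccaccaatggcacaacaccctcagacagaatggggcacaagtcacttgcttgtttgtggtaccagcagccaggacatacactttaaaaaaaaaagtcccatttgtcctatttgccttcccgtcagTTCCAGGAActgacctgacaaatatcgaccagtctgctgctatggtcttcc
Serpina3g: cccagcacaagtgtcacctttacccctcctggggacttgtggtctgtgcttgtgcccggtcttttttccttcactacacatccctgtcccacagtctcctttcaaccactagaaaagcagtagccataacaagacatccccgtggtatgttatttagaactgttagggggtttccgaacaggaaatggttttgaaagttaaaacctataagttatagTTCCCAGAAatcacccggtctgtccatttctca
Serpinb6a: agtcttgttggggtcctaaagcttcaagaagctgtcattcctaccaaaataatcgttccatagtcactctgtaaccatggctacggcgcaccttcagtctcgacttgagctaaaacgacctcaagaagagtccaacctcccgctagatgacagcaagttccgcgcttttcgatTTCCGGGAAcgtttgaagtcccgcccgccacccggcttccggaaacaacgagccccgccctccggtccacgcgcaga
Serpinb1c: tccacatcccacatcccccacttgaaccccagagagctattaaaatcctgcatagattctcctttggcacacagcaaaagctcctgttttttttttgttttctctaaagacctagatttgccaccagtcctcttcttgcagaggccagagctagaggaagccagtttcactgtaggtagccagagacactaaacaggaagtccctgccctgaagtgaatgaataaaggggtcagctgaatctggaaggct
Serpinb6b: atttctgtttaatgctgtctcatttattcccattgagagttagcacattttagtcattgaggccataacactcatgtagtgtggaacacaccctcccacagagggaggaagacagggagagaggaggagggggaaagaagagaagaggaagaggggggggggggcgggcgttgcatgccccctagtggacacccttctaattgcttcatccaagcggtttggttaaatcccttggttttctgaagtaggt
Serpinb9: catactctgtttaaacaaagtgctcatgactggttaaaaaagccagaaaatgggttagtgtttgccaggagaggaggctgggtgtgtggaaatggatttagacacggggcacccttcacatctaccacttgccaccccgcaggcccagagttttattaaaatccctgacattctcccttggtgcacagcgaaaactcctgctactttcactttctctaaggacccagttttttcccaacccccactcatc
Windows existed for 45 Serpin genes and 19 of the tested ones. TTCNNNGAA was found in 3 of the 19, those of Serpina3g, Serpinb6a and Serpina11, and in 7.14% of all 27025 windows. The AP-1 letters TGANTCA were in 6 of the 19 against 6.85% of all windows, in Serpina1b, Serpina1c, Serpina1d, Serpinb5, Serpinb8 and Serpinb11. The FOXO letters GTAAACA were in 0 of the 19 against 3.06%, and the hypoxia core ACGTG was in 3 of the 19 against 16.5%. The TATA letters TATAAA were in 0 of the 19 against 13.0%. Over all 45 Serpin windows the counts were 6 for the STAT letters, 10 for AP-1, 0 for FOXO, 5 for the hypoxia core and 13 for TATAAA. The STAT matches lay before 1 gene that was higher in tumour and 2 that were higher at day 14.

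A probe counted as detected where the scanner software called it well above background. Of the 54 genes, 8 were detected on all 8 arrays, 21 on some and 25 on none. The number of Serpin genes detected was highest in untreated tumour (21 and 22), with 21 and 17 in parotid, 16 on the day 3 array, 15 and 18 on the day 14 arrays and 12 in submandibular gland. The 75th percentile of signal, by which arrays were scaled, was 966 and 972 units in the untreated tumours and 145 to 730 on the other arrays, so the detection limit on the scaled axis lay lowest in the untreated tumours (log2 levels of -5.13 and -5.60 against -4.02 to -2.95). A difference from a group below its limit is therefore given as a bound, "at least N-fold", set at that limit. The untreated tumours kept low levels of the granular duct list (summed log2 level -0.26 and 0.03, against 8.53 to 11.7 in gland and at day 14) and of the acinar list (6.06 and 6.69 against 10.02 to 11.9). Both day 14 arrays carried Y-linked signal together with low but detected Xist (-2.10 and -2.40), and untreated tumour 1 and parotid 2 had Y-linked signal where untreated tumour 2, day 3, parotid 1 and submandibular gland had Xist.

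**Figure D1:**
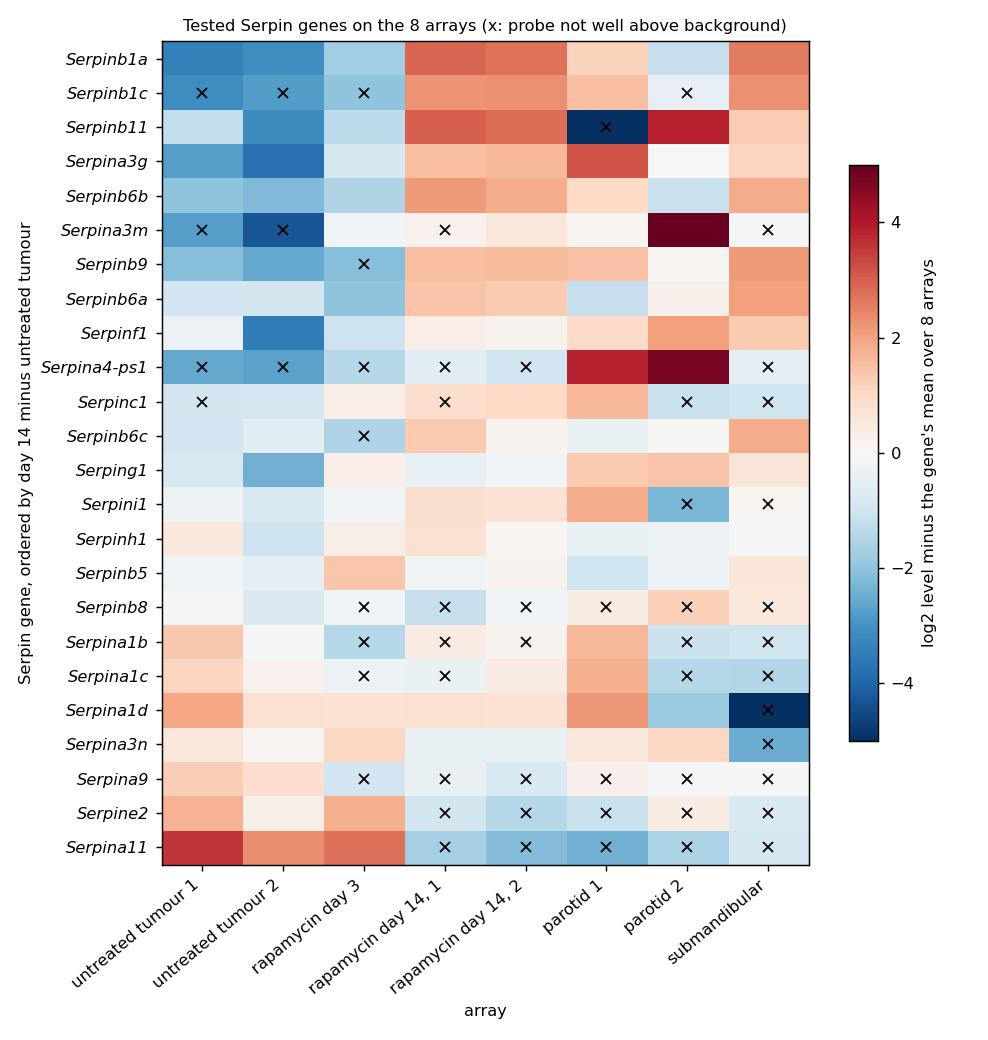
Log2 level of each of the 24 tested Serpin genes (rows) on the 8 arrays (columns), minus that gene's mean over the arrays; colours stop at -5 and 5, and a cross marks a probe not well above background. The clade B genes Serpinb1a, Serpinb1c, Serpinb6b and Serpinb9 are low in untreated tumour and at day 3 and high at day 14, and Serpina11 runs the other way.

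In untreated tumour against parotid, 1 of the 24 genes was higher (Serpina11) and 9 were lower, at an adjusted p under 0.05 by limma with Benjamini-Hochberg adjustment over all genes. Of all genes tested, 39.0% passed that test, 18.7% upward and 20.3% downward. The median log2 difference of the 24 was -0.86 against 0.02 for all genes. Against submandibular gland 3 were higher and 9 lower, with 29.4% of all genes called (14.3% upward, 15.2% downward). Both untreated tumours lay on slide 1 and the submandibular array on slide 2, so tissue and slide cannot be told apart there. After 14 days of rapamycin 8 were higher than in untreated tumour and 2 lower, with 47.7% of all genes called (24.3% upward, 23.5% downward), and the median of the 24 was 1.42 against 0.02. Of those calls, 1 of the 8 (Serpina4-ps1) compares levels below background on both sides, as does 1 of the 9 against submandibular gland (the same gene), and 1 of the 2 (Serpina9) concerns tumour levels below the day 14 detection limits. The 2 members lower at day 14 passed the filter only through untreated or day 3 tumour, so their calls are not independent of the filter. These comparisons share arrays: the untreated tumours enter both. The medians take in readings below detection, unlike the bounds given for single genes, and the detection limit lay lowest in untreated tumour. In whole tissue, fewer cells of a type and less RNA per cell cannot be told apart.

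The counts moved with single arrays. The shares of all genes called in those fits are not given, so a move of the members alone is not shown. For tumour against parotid they ran from 6, without either untreated tumour, through 7, without either day 14 array, to 15 without parotid 1 and 13 without parotid 2. For day 14 against untreated tumour they ran from 5 and 6, without day 14 array 1 or 2, to 16 without either parotid array. The parotid arrays enter that comparison only through the pooled spread, and they differed more from each other than the other pairs did (correlation over genes 0.928, against 0.982 for the untreated tumours and 0.986 for day 14).

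**Figure D2:**
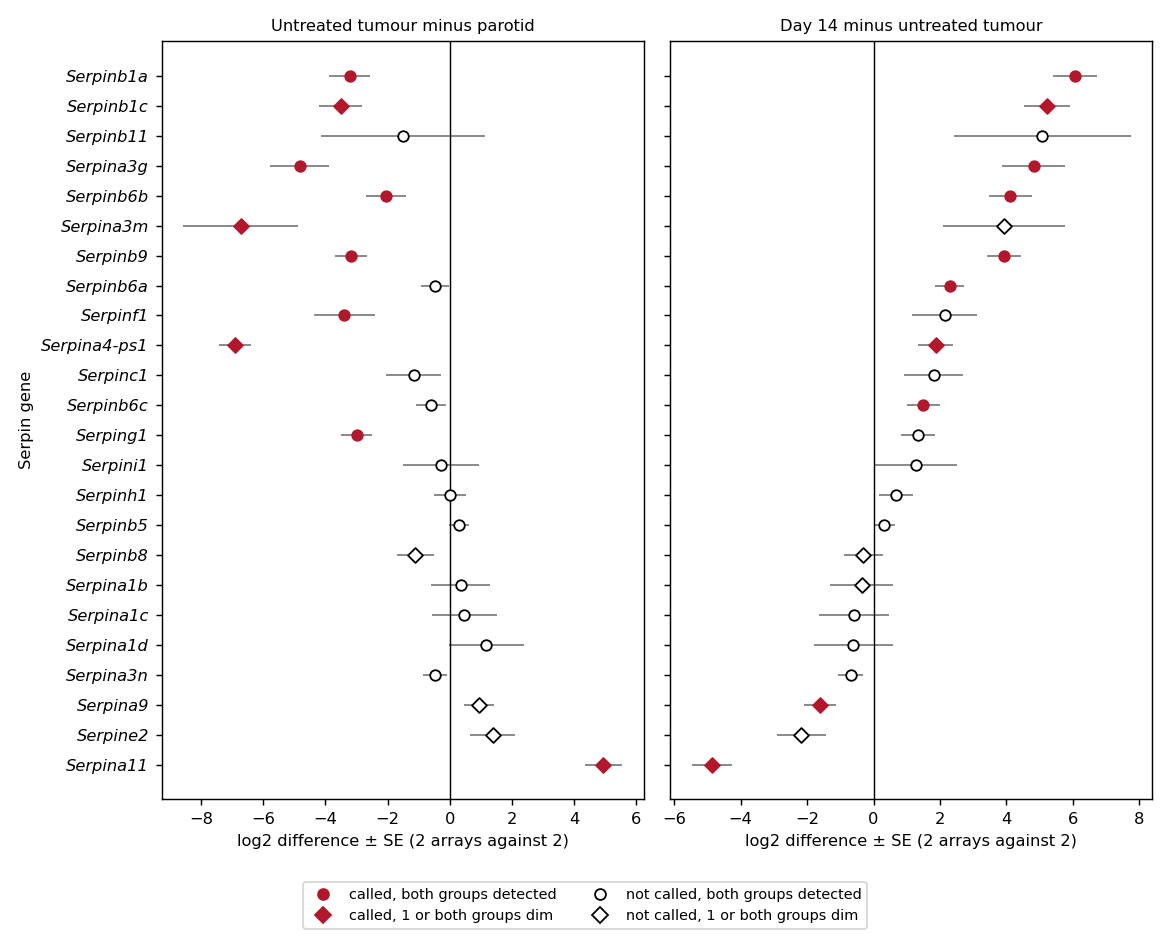
Log2 difference ± SE of each tested Serpin gene in untreated tumour minus parotid (left) and in day 14 minus untreated tumour (right), 2 arrays against 2; red marks an adjusted p under 0.05, diamonds mark genes detected on no array of one or both groups. Serpinb1a stands at -3.23 on the left and 6.06 on the right. Serpina11, a diamond in both panels, lies to the right of 0 on the left and to the left of 0 on the right.

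Serpine2 (protease nexin 1, a cell-bound inhibitor of thrombin and urokinase) was detected on both untreated tumours and the day 3 array and nowhere else. Its log2 level was -2.72 and -4.15 in untreated tumour and -2.65 at day 3. The other 5 arrays lay between -5.86 and -4.06, all below detection, and parotid 2 overlapped the second tumour. It passed neither test, with an adjusted p of 0.18 against parotid and 0.0503 for day 14 against untreated tumour (limma). The -4.15 of untreated tumour 2 lies below the detection limits of those 5 arrays (-3.93 to -2.95), so absence there is not measured at that level. Untreated tumour was only at least 1.11-fold above parotid and at least 1.03-fold above day 14.

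The brain serpin Serpini1 (neuroserpin, an inhibitor of the tissue activator) lay between -3.64 and -2.10 on the 5 tumour arrays. It stood at -1.05 in parotid 1 and was not detected in parotid 2, whose detection limit of -3.23 lies inside the tumour range, or in submandibular gland. No comparison passed the test. Without parotid 2 the difference of untreated tumour from parotid was -2.35. Serpinb2 (plasminogen activator inhibitor 2) was detected in untreated tumour 1 alone, at -4.46 and -4.83 by its 2 probes, and was not tested. Both readings lie below the detection limits of every array outside untreated tumour (-4.02 to -2.95), so its absence there is not measured. Serpinc1 (antithrombin) had 2 kept probes. The one that stood for the gene was detected on 1 array each of untreated tumour, day 14 and parotid and on the day 3 array, and passed no test. The other was detected in both parotid arrays, at -2.90 and -1.53, and nowhere else. Fitted on its own among all probes, this other probe was lower in untreated tumour than in parotid (-3.75 ± 0.62, limma, adjusted p = 0.00548). It was also lower at day 14 than in parotid (-3.31 ± 0.62, limma, adjusted p = 0.0245). This probe passed the filter only through parotid, so both calls are not independent of the filter. With the tumour side not detected, these sizes are not measured, and the 2 probes differ.

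The enzymes and receptors around these inhibitors came from a list of 20 genes for plasminogen activation and coagulation, 15 of them tested. In tumour against parotid 3 were higher and 4 lower, and the list's median was 0.04. At day 14 against untreated tumour 4 were higher and 3 lower, with a median of -0.02. Of all genes, 18.7% were higher and 20.3% lower in tumour, and 24.3% higher and 23.5% lower at day 14. The median of all genes was 0.02 in both comparisons. Plat, Anxa2 and S100a10 were the 3 higher in tumour and also the 3 lower at day 14, in comparisons that share the untreated tumour arrays. Plat, the tissue-type plasminogen activator, stood at 6.16 and 6.28 in untreated tumour and 6.41 at day 3. It stood at 0.13 and 0.44 at day 14, 1.36 and 0.81 in parotid and -0.41 in submandibular gland. The tumour arrays up to day 3 were thus far apart from the rest, by 5.13 ± 0.25 against parotid (limma, adjusted p = 0.000136) and by -5.94 ± 0.25 from untreated to day 14 (adjusted p = 0.000134).

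Anxa2 and S100a10, which form a cell-surface receptor for plasminogen and its tissue activator, were higher in tumour by 3.10 ± 0.22 and 1.56 ± 0.23 and lower at day 14 by -3.10 ± 0.22 and -1.35 ± 0.23 (limma, adjusted p of 0.00462 or less). Vtn (vitronectin, an adhesion protein of plasma and matrix) ran opposite, at least 68.6-fold lower in tumour than in parotid and at least 42.3-fold higher at day 14 than in untreated tumour. Thbd (thrombomodulin, which redirects thrombin) was lower in tumour by -2.94 ± 0.47 and higher at day 14 by 3.30 ± 0.47. Plau (urokinase) was between -4.38 and -3.06 on every array and was not called in either comparison. The fibroblast marker list had a summed log2 level of 6.79 and 5.30 in untreated tumour, 6.90 at day 3, 6.43 and 6.41 at day 14 and 7.12 and 7.79 in parotid. The part of fibroblast content in Serpine2 was not tested.

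Serpina11 was the only member that was high in untreated tumour by all 3 tests that define the pattern here: above parotid, above submandibular gland and above day 14. Its probe (chr12:104383888-104383947 on mm8) read -0.25 and -1.53 in untreated tumour and -1.10 at day 3. On the other 5 arrays it read between -6.24 and -4.67 and was not well above background. It passed the filter only through untreated and day 3 tumour, so its calls are not independent of the filter. The untreated and day 3 tumour arrays did not overlap the rest, whose values below detection have no measured order. The level was at least 6.46-fold higher than in parotid (limma, adjusted p = 0.00178), at least 4.18-fold higher than in submandibular gland (0.0124) and at least 5.99-fold lower at day 14 (0.00159). The parotid and day 14 calls held in 15 of 15 alternatives. The submandibular call was lost without untreated tumour 1.

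**Figure D3:**
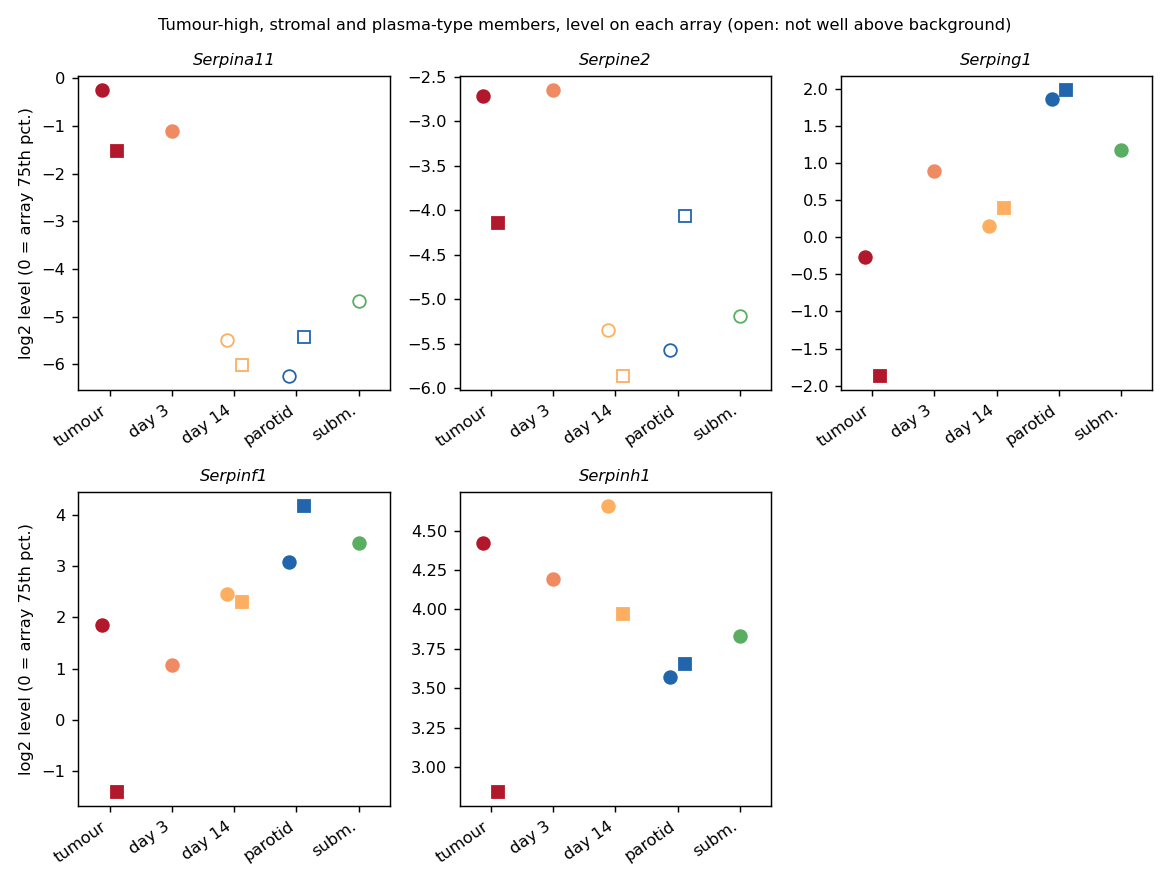
Log2 level (0 is the 75th percentile of the array) of 5 members on each array by group; circles are replicate 1, squares replicate 2, and open symbols were not well above background; each panel has its own axis range. Serpina11 is high in untreated and day 3 tumour only, Serping1 is highest in parotid, and Serpinh1 does not separate the groups.

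The clade B genes of chromosome 13 were low in untreated tumour and high at day 14 and in submandibular gland. The files placed 13 genes there (probes between 32850318 and 33931494 on mm8), of which 6 were detected on any array and all 6 were tested: Serpinb1a, Serpinb1c, Serpinb6a, Serpinb6b, Serpinb6c and Serpinb9. All 6 were higher at day 14 than in untreated tumour, all 6 were higher at day 14 than at day 3, and all 6 were lower in untreated tumour than in submandibular gland, in comparisons that share arrays. The submandibular comparison also lies between slides. Against parotid 4 of the 6 were lower in tumour, Serpinb1a, Serpinb1c, Serpinb6b and Serpinb9. Of all genes, 24.3%, 10.9%, 15.2% and 20.3% were called in the same direction in those 4 comparisons. On chromosome 1 lay 12 clade B genes, of which Serpinb5, Serpinb8 and Serpinb11 were tested and not called in them. Serpinb11 stood 5.08 ± 2.65 higher at day 14 than in untreated tumour, and the difference between the loci was not tested. The genes share a locus and related sequence, and are not independent of each other. Serpinb1c passed the filter only through day 14 and submandibular gland, so its part in these counts is not independent of the filter.

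Serpinb1a, an intracellular inhibitor of neutrophil elastase, cathepsin G and proteinase 3, had a log2 level of -1.61 and -1.36 in untreated tumour and 0.02 at day 3. It reached 4.67 and 4.49 at day 14, beside 2.87 and 0.62 in parotid and 4.37 in submandibular gland. Tumour arrays were the lowest, day 14 the highest, and no group overlapped another. Day 14 exceeded untreated tumour by 6.06 ± 0.67, or 66.8-fold (limma, adjusted p = 0.0011, called in 16 of 16 alternatives). Untreated tumour lay below parotid by a log2 difference of -3.23 ± 0.67 (adjusted p = 0.0123) and below submandibular gland by -5.86 ± 0.82 (0.00404). The parotid call was lost without untreated tumour 1. Within slide 1 the day 14 difference was 6.15.

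Serpinb6a, whose human counterpart inhibits cathepsin G and thrombin, stood at 1.70 and 1.72 in untreated tumour, 0.63 at day 3, 4.06 and 3.93 at day 14, 1.48 and 2.90 in parotid and 4.70 in submandibular gland. Day 14 and submandibular gland were above all others, and the untreated tumours fell between the 2 parotid arrays. The day 14 difference from untreated tumour was 2.29 ± 0.44, or 4.88-fold (limma, adjusted p = 0.00742), a call that was lost without either day 14 array. A second Serpinb6a probe was not detected on any array.

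Serpinb6b stood at -1.43 and -1.63 in untreated tumour, -0.93 at day 3, 2.73 and 2.44 at day 14, 1.60 and -0.55 in parotid and 2.43 in submandibular gland. Its day 14 level exceeded that of untreated tumour by 4.11 ± 0.65, or 17.3-fold (limma, adjusted p = 0.00374, called in 16 of 16 alternatives). Serpinb6c was dimmer, at -3.44 and -3.04 in untreated tumour, not detected at day 3, -1.16 and -2.31 at day 14, -2.83 and -2.44 in parotid and -0.61 in submandibular gland. Its day 14 difference of 1.50 ± 0.49 was the smallest of the 6 (limma, adjusted p = 0.0454). That call was lost without either untreated tumour and without day 14 array 1.

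Serpinb9, the intracellular inhibitor that protects cytotoxic lymphocytes and other cells from granzyme B, stood at -4.40 and -4.83 in untreated tumour and was not detected at day 3. It stood at -0.74 and -0.67 at day 14, -0.78 and -2.11 in parotid and -0.12 in submandibular gland. The tumour arrays lay at least 2 log2 units below every gland and day 14 array. The difference was -3.17 ± 0.51 against parotid (limma, adjusted p = 0.0048), -4.50 ± 0.62 against submandibular gland (0.00397) and 3.91 ± 0.51 for day 14 against untreated tumour (0.0019, called in 16 of 16 alternatives). The second Serpinb9 probe was detected in parotid 1 and submandibular gland alone. It passed the filter only through the single submandibular array, so its submandibular call is not independent of the filter. Fitted on its own among all probes, it was lower in untreated tumour than in submandibular gland (-3.88 ± 0.83, limma, adjusted p = 0.0173). Against parotid it was also lower (-2.52 ± 0.68, limma, adjusted p = 0.0299). With the tumour side not detected, these sizes are not measured. For day 14 against untreated tumour it was detected in neither group, and no size is given.

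Serpinb1c was not detected in untreated tumour or at day 3 and stood at -2.11 and -2.05 at day 14, -2.84 in parotid 1 and -2.04 in submandibular gland. Parotid 2, at -4.76, was not detected either. Its level at day 14 was at least 9.75-fold above untreated tumour (limma, adjusted p = 0.00201), and untreated tumour was at least 10.02-fold below submandibular gland (0.00651) and at least 2.97-fold below parotid (0.0101). The parotid bound rests on 1 detected array of 2, and that call was lost without untreated tumour 1.

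**Figure D4:**
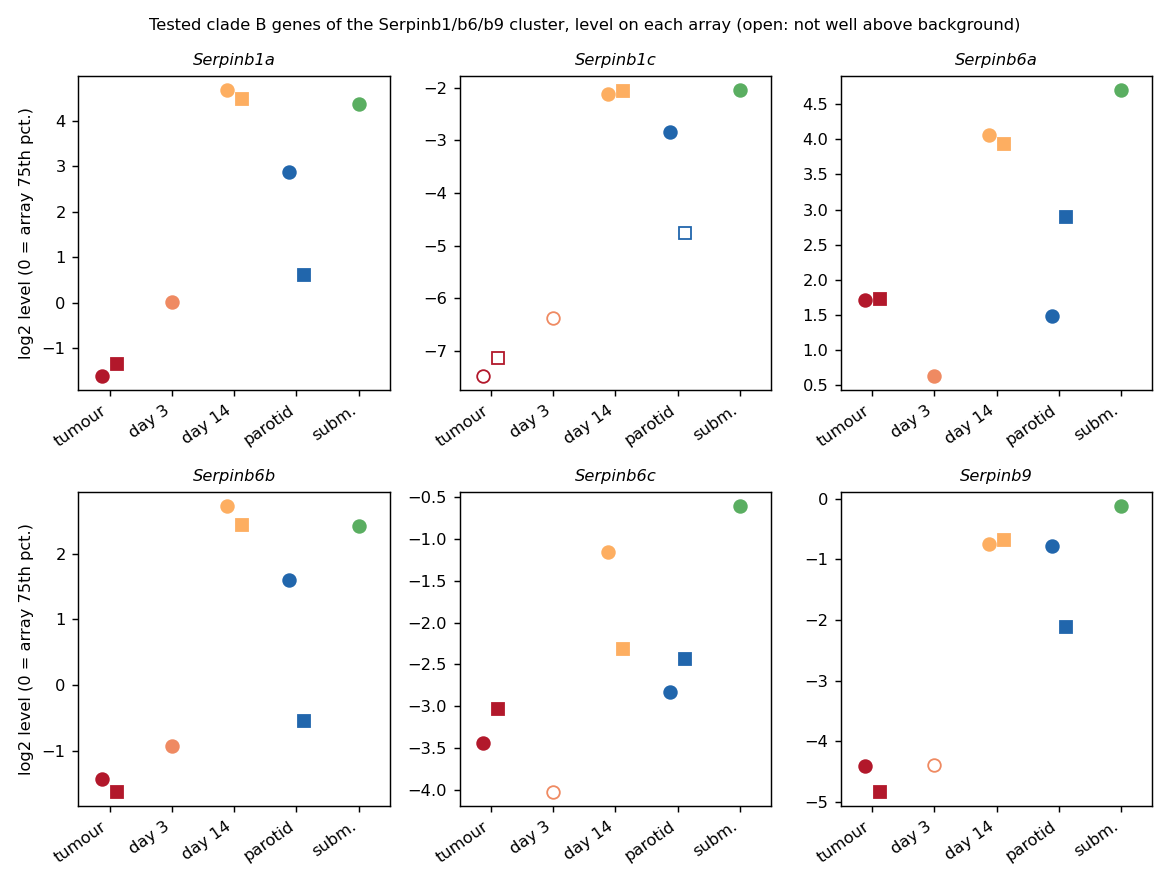
Log2 level (0 is the 75th percentile of the array) of the 6 tested clade B genes of chromosome 13 on each array by group; circles are replicate 1, squares replicate 2, and open symbols were not well above background; each panel has its own axis range. In all 6 panels both day 14 arrays lie above both untreated tumours and the day 3 array; for Serpinb1a they reach 4.67 and 4.49 against -1.61 and -1.36.

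By the same tests 2 members were particular to day 14, in the sense that they exceeded both untreated tumour and parotid: Serpinb1a by 2.84 ± 0.67 over parotid (limma, adjusted p = 0.0466) and Serpinb6a by 1.81 ± 0.44 (0.0491). In that comparison 2 of the 24 members were higher and 1 lower, with 11.3% of all genes called (6.25% upward, 5.07% downward). Both calls were lost without either untreated tumour and without either day 14 array. Within slide 1 the 2 differences were 1.80 and 2.58, and within slide 2 they were 3.87 and 1.04. The submandibular array, at 4.37 and 4.70, lay as high as day 14 for both genes, and day 14 against submandibular gland was not tested.

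Marker lists of several cell types also differed between untreated tumour and day 14, in both directions. The granular duct list stood at -0.26 and 0.03 in untreated tumour and 1.01 at day 3. It stood at 11.7 and 11.6 at day 14 and 11.5 in submandibular gland. The myoepithelial list stood at 3.74 and 2.08 in untreated tumour, 6.95 and 6.99 at day 14 and 7.49 in submandibular gland. The macrophage list was lower at day 14 (3.00 and 3.25) than in untreated tumour (4.32 and 4.84). The T and NK list (Cd3e, Cd3g, Cd8a, Gzmb, Prf1) had 0 of 5 markers detected in untreated and day 3 tumour, with summed log2 levels of -4.21 to -3.16. It had 4 of 5 detected on both day 14 arrays (1.61 and 2.17), 5 and 2 in parotid (4.36 and -0.79) and 5 in submandibular gland (1.03). The B and plasma cell list lay between -3.95 and -2.67 in untreated and day 3 tumour and between 5.13 and 5.68 elsewhere. The neutrophil list ran the other way, at 4.61, 4.48 and 6.02 in the 3 earlier tumour arrays and near 0 at day 14. The muscle list stood between -1.70 and -1.30 in untreated and day 3 tumour, at 9.15 and 9.34 at day 14, at -0.68 and 5.99 in parotid and at -0.24 in submandibular gland. The fat list stood at 4.51 and 3.70 in untreated tumour, 6.46 at day 3, 8.06 and 7.84 at day 14, 5.61 and 7.64 in parotid and 4.90 in submandibular gland. The part of these cells in the Serpinb levels was not tested.

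The proteases that clade B serpins face were taken from 2 lists. Of 12 granule and mast cell proteases 6 were tested: 4 were lower in tumour than in parotid and 3 were higher at day 14 than in untreated tumour, with none in the opposite direction and list medians of -3.93 and 1.87. Those higher at day 14 were Gzma, Gzmm and Mcpt4, and Mcpt4 was not detected in either group. Cma1 and Mcpt4, the mast cell chymases, were at least 48.0-fold and 69.2-fold lower in tumour, and the mast cell list was fully or mostly detected only in parotid (5 and 4 of 5 markers). Gzmb, the target of Serpinb9, was not detected in the tumour or day 3 arrays or at day 14, and was detected in parotid 1 and submandibular gland (-3.17 and -1.38). Of 10 cysteine cathepsins 4 were lower in tumour than in parotid and none higher (median -1.04). At day 14 against untreated tumour 2 were higher and 1 lower (median -0.23). For both lists, the shares of all genes were 18.7% higher and 20.3% lower in tumour, and 24.3% higher and 23.5% lower at day 14. The median of all genes was 0.02 in both comparisons. Ctsw, a lymphocyte cathepsin, was lower in tumour by -5.05 ± 0.92 and higher at day 14 by 5.51 ± 0.92.

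Serpina3g, an intracellular clade A member known from lymphocytes and macrophages for blocking lysosomal cathepsins, was low in untreated tumour. It stood at -2.26 and -3.23 in untreated tumour, -0.37 at day 3, 2.01 and 2.16 at day 14, 3.64 and 0.51 in parotid and 1.57 in submandibular gland. The untreated tumours were the lowest and the day 3 array lay between them and all others. The difference was -4.82 ± 0.95 against parotid (limma, adjusted p = 0.0101) and 4.83 ± 0.95 for day 14 against untreated tumour (0.00817). Against submandibular gland it was -4.32 ± 1.16 (0.0359). The parotid call was lost without untreated tumour 2, the day 14 call without either day 14 array, and the submandibular call without any 1 of those 4 tumour arrays.

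Serpina3n, a secreted inhibitor that blocks granzyme B and elastase and rises in the acute-phase response, was detected on every array except submandibular gland. It stood at -1.96 and -2.43 in untreated tumour, -1.50 at day 3, -2.89 at day 14 (both arrays) and -1.98 and -1.49 in parotid. Untreated tumour was at least 1.69-fold above submandibular gland (limma, adjusted p = 0.00754) and did not differ from parotid beyond error (-0.46 ± 0.39, 95% interval -1.40 to 0.47). Submandibular gland was at least 2.33-fold below parotid (0.026), and this was 1 of 2 members called between the glands. None was higher there and 2 were lower, with 2.35% of all genes called (1.36% upward, 0.984% downward). The other was Serpina4-ps1, at least 5.52-fold lower. Both calls were lost without either untreated tumour or either day 14 array.

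The antitrypsin group (Serpina1) encodes the main plasma inhibitor of neutrophil elastase and is made chiefly by the liver. Serpina1d stood at 2.62 and 1.46 in untreated tumour, 1.44 at day 3, 1.46 and 1.41 at day 14, 2.87 and -1.16 in parotid, and was not detected in submandibular gland. Every tumour array was thus inside the span of the parotid pair. Untreated tumour was at least 31.8-fold above the single submandibular array (limma, adjusted p = 0.0203), a call lost without untreated tumour 1 or either day 14 array. The difference from parotid was 1.18 ± 1.20 and did not pass the test. Serpina1b and Serpina1c were detected in both untreated tumours (-2.75 and -4.14 for Serpina1b, -2.54 and -3.40 for Serpina1c) and in parotid 1, and passed no test. Serpina1c was also detected on day 14 array 2 (-3.19). The liver markers Alb, Apoa1, Ttr, Fgb and Apoc3 were below detection in all untreated and day 3 tumours (0 of 5), with 1 detected at day 14 and in parotid 1 and 2 in parotid 2.

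The parotid pair split on several clade A and B members. Serpinb11, a clade B gene of chromosome 1, stood at -5.43 (not detected) in parotid 1 and 3.73 in parotid 2. The same gene stood at -1.39 and -3.32 in untreated tumour, -1.49 at day 3, 2.81 and 2.64 at day 14 and 1.09 in submandibular gland. Day 14 did not overlap untreated tumour, but the difference did not pass the test (limma, adjusted p = 0.159); the pooled spread behind that test includes the parotid pair.

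Serpina3m stood at -3.34 in parotid 1 and 2.85 in parotid 2, against no detection in untreated tumour. It was called at least 34.9-fold lower in tumour than in parotid (limma, adjusted p = 0.0308), a bound that rests mostly on parotid 2, and the call was lost without either untreated tumour or either day 14 array. Its neighbour Serpina3k was detected in parotid 2 alone, at -0.75 and 2.41 by its 2 probes, and was not tested. Serpina4-ps1 was detected in both parotid arrays (-0.94 and -0.03) and nowhere else. It passed the filter only through parotid, so its calls against parotid are not independent of the filter. Untreated tumour was at least 29.4-fold lower (limma, adjusted p = 0.000377) and day 14 at least 7.90-fold lower (0.00715, lost without either day 14 array), and its second probe was dim on every array. Its calls between untreated tumour and day 14 or submandibular gland compare levels below background, and no fold is given.

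**Figure D5:**
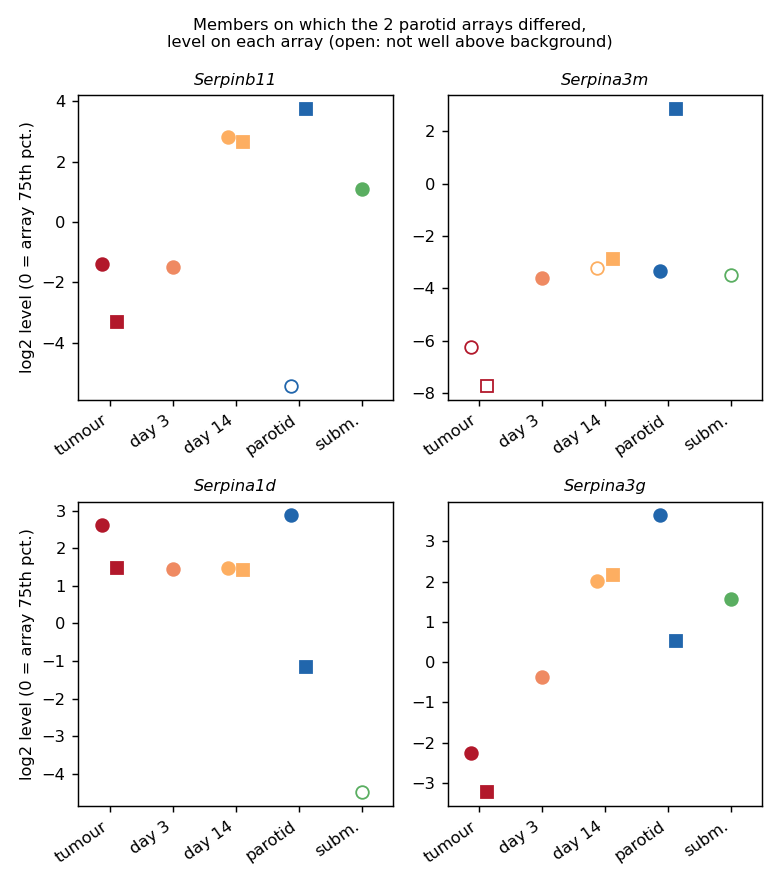
Log2 level (0 is the 75th percentile of the array) of 4 members whose parotid arrays stood far apart, by group; circles are replicate 1, squares replicate 2, and open symbols were not well above background; each panel has its own axis range. Parotid 2 is high for Serpinb11 (3.73 against -5.43) and Serpina3m (2.85 against -3.34), and parotid 1 for Serpina1d (2.87 against -1.16) and Serpina3g (3.64 against 0.51).

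Beside this split, parotid 2 carried Y-linked signal (Ddx3y 1.11) and parotid 1 carried Xist (4.46). Parotid 2 also had a higher summed level of muscle markers (5.99 against -0.68) and a lower one of T and NK markers (-0.79 against 4.36). Parotid 1 lay on slide 1 and parotid 2 on slide 2. The part of sex, tissue makeup and slide in these members was not tested, and with 1 array on each side they cannot be told apart.

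Serpina9, a clade A gene known from germinal centre B cells, was detected only in the 2 untreated tumours, at -3.80 and -4.19. It passed the filter only through untreated tumour, so its calls are not independent of the filter. Day 14 was called lower (limma, adjusted p = 0.035), but both tumour levels lie below the detection limits of the day 14 arrays, so no size is given. Under normexp background correction the difference changed sign.

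Serping1 (C1 inhibitor, which blocks the first complement proteases and plasma kallikrein) stood at -0.27 and -1.87 in untreated tumour, 0.89 at day 3, 0.15 and 0.40 at day 14, 1.87 and 1.98 in parotid and 1.18 in submandibular gland. The untreated tumours were the lowest of all arrays and the parotids the highest. The difference from parotid was -2.99 ± 0.50 (limma, adjusted p = 0.00572), called in 16 of 16 alternatives, and from submandibular gland -2.25 ± 0.62 (0.0379). Day 14 stood 1.34 ± 0.50 above untreated tumour without passing the test (0.0682).

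Serpinf1 (pigment epithelium-derived factor, a secreted non-inhibitory serpin that restrains vessel growth) stood at 1.84 and -1.39 in untreated tumour, 1.08 at day 3, 2.44 and 2.29 at day 14, 3.08 and 4.16 in parotid and 3.45 in submandibular gland. Untreated tumour 2 was far below tumour 1, and both lay below every gland array. The difference from parotid was -3.40 ± 0.98 (limma, adjusted p = 0.0366). The call was lost without untreated tumour 2, without parotid 2, without either day 14 array and on slide 1 alone (-2.85). With 1 array left out the difference ran from -5.01, without untreated tumour 1, to -1.78, without untreated tumour 2. A second probe gave the same difference from parotid (-3.40 ± 1.07) but a smaller one from untreated tumour to day 14 (0.48 against 2.15).

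Serpinh1 (HSP47, the endoplasmic reticulum chaperone of procollagen) stood at 4.42 and 2.84 in untreated tumour, 4.19 at day 3, 4.66 and 3.97 at day 14, 3.57 and 3.65 in parotid and 3.83 in submandibular gland. The gland arrays all lay between the 2 untreated tumours. Its difference was 0.02 ± 0.52 against parotid (95% interval -1.23 to 1.27) and 0.68 ± 0.52 for day 14 against untreated tumour (-0.57 to 1.93). Its client list of 19 collagen and collagen-folding genes had 4 higher and 2 lower in tumour than in parotid (median 0.39), and 6 lower and none higher at day 14 than in untreated tumour (median -1.15). Of all genes, 18.7% were higher and 20.3% lower in tumour, and 24.3% higher and 23.5% lower at day 14. The median of all genes was 0.02 in both comparisons. Plod2, a collagen lysyl hydroxylase, was higher in tumour by 2.70 ± 0.38 and lower at day 14 by -2.55 ± 0.38. Untreated tumour 2, low for Serpinf1, Serping1 and Serpinh1, also had the lowest fibroblast list level (5.30), whose part was not tested.

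Serpinb5 (maspin, an epithelial clade B member without known inhibitory activity) was detected on all arrays, at -0.25 and -0.47 in untreated tumour, -0.20 and 0.14 at day 14, -1.03 and -0.31 in parotid and 0.60 in submandibular gland. The day 3 array was the highest, at 1.37. Serpinb8 was detected in the untreated tumours alone (-4.30 and -5.05, close to the limit) and passed no test. Both levels lie below the detection limits of the other arrays (-4.02 to -2.95), so its absence elsewhere is not measured. The undetected gland readings were higher, at -3.97 and -3.15 in parotid and -3.80 in submandibular gland.

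After 3 days of rapamycin 0 of the 24 members passed the test against untreated tumour by limma, where 0.00611% of all genes did (1 gene). At an unadjusted p under 0.05 there were 3 members: Serpinb5 at 1.73 ± 0.40 (adjusted p = 0.281), Serping1 at 1.96 ± 0.62 (0.435) and Serpina9, with 1 array against 2. Of all 16362 genes tested, 1436 reached that unadjusted cutoff. Whether the 3 of 24 members exceed that share was not tested. Serpina9 was not detected at day 3, and its bound there was only 1.02-fold (adjusted p = 0.41). Without parotid 1, 3 members were called, Serpinb1a (1.50), Serpinb5 (1.73) and Serpinb6a (-1.08). Without parotid 2 Serpina3g (2.37) joined them. The shares of all genes called in these 2 fits are not given. No member was particular to day 3 with all arrays. Non-uniform spots numbered 791 on the day 3 array and 5 to 51 on each other array. Both untreated tumours lay on slide 1 and the day 3 array on slide 2, so treatment and slide cannot be told apart there.

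Between day 3 and day 14, 6 members were higher at day 14 and 1 was lower, with 22.8% of all genes called (10.9% upward, 11.8% downward). The 6 were the chromosome 13 clade B genes and the other was Serpina11. Serpinb1a differed by 4.56 ± 0.82 (limma, adjusted p = 0.0132) and Serpinb6b by 3.52 ± 0.79 (0.0264). For the genes not detected on one side the bounds were at least 9.95-fold higher for Serpinb9, at least 3.83-fold higher for Serpinb1c and at least 5.18-fold lower for Serpina11 at day 14. With 1 array at day 3, the count fell to 0 without day 14 array 1 and to 0 without day 14 array 2, and rose to 12 without either parotid array. For those fits the shares of all genes called are not given. Within slide 2, which held the day 3 array and 1 day 14 array, the difference was 4.47 for Serpinb1a.

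The epithelial surface proteases and the inhibitors outside the family gave a wider setting for these members. Of 16 epithelial surface and secreted serine proteases 10 were tested, with 4 higher and 2 lower in tumour than in parotid (median 0.86) and none higher and 5 lower at day 14 than in untreated tumour (median -1.19). Klk6 was at least 38.2-fold higher in tumour and at least 35.3-fold lower at day 14. Of 20 other protease inhibitors 13 were tested, with 4 higher and 3 lower in tumour and 5 higher and 4 lower at day 14. For both lists, the shares of all genes were 18.7% higher and 20.3% lower in tumour, and 24.3% higher and 23.5% lower at day 14. The median of all genes was 0.02 in both comparisons. Csta1, the cytosolic cystatin of squamous cells, was at least 10.04-fold higher in tumour, and Itih5, a hyaluronan-binding inhibitor heavy chain, was lower by -4.37 ± 0.42.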

How the data were processed

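RNA (300 ng, Trizol-extracted per the labels) from 8 samples was read on 1-colour Agilent arrays of design 014868. Per the file headers, the authors used Feature Extraction 10.7.3.1, and the deposited background-subtracted intensities were not scaled between arrays. The authors' deposited log2 values of the same arrays served as an alternative only. Log2 intensity minus the 75th percentile of its array entered limma (version 3.58.1, R 4.3.3; lmFit, eBayes with trend) as 5 group means over 8 arrays, with 3 residual degrees of freedom. A probe was kept where 1 group or more had it well above background on all its arrays, and the brightest kept probe stood for its gene, leaving 16362 genes. Where a gene was kept only through groups in which it was high, its calls against the others are not independent of the filter. Tests were two-sided, with Benjamini-Hochberg adjusted p under 0.05 over all genes.

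Bounds set a group without detected arrays at the lowest well-above-background signal of each of its arrays, or at the probe's own level where higher. Probe positions are on mm8. The fit was tested on simulated data. The members and all lists were chosen with earlier results of these data known, and no list gives independent support. Values per array were given for members called in tumour against parotid or day 14 against tumour (at most 8 each way), for at most 4 each way elsewhere, and for members of known role. Serpinb6b against parotid, Serpinb6a and Serpinb6c against day 3, Serpinb11, Serpina3k and Serpinc1 were added after their values were seen. One member is not reported here and is left out of all counts of members, but stays among all genes tested. One further probe, now named Serpinb6d, carries a clone name in the files and is no member.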

Additional observations from a re-analysis of the deposited data

Results flagged for a closer look

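In 7 members the level differed between the day 3 and day 14 tumours, by the limma test of day 14 against day 3 over all genes (2 arrays against 1). The calls depended on both day 14 arrays. The day 3 array had Xist (4.42) and no Y-linked signal, and both day 14 arrays had Y-linked signal. Days of rapamycin, sex and tissue makeup cannot be told apart here. Day 14 was higher by a log2 difference of 4.56 for Serpinb1a, 4.29 for Serpinb1c, 3.37 for Serpinb6a, 3.52 for Serpinb6b, 2.29 for Serpinb6c and 3.69 for Serpinb9. It was lower, at -4.65, for Serpina11. Serpinb1c, Serpinb6c and Serpinb9 were not detected at day 3 and Serpina11 was not detected at day 14, so their differences depend on the detection limit, and the bounds are at least 3.83-fold, 4.87-fold, 9.95-fold and 5.18-fold.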

How the results depend on the processing

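No paired analysis was possible because the group labels share only replicate number 2. Leaving out each replicate in turn gave 6 to 15 called members for tumour against parotid, 7 to 16 against submandibular gland, 0 to 11 between the glands, 0 to 4 for day 3, 5 to 16 for day 14 against untreated tumour, 0 to 12 for day 14 against day 3 and 0 to 12 for day 14 against parotid. A group left with 1 array was assumed to vary like the others. Without the filter on dim probes the calls were 34, 37 and 36 in tumour against parotid, tumour against submandibular gland and day 14 against tumour, of which 21, 25 and 24 concerned genes detected in neither group. With normexp the calls were 6 for tumour against parotid and 1 between the glands. With only the 8 genes detected on all arrays they were 5 against each gland, 0 between glands and 4 for day 14 against untreated tumour and against day 3. With slide as a block they were 6 against submandibular gland and 0 between the glands, and with no intensity trend 1 for day 14 against parotid. Beyond fewer or dimmer genes tested, the cause was not tested. For all these settings the shares of all genes called are not given, so a move of the members alone is not shown. Serpina9 at day 14 reversed to 0.16 under normexp, and Serpini1 in tumour against parotid ranged from -2.35 to 1.78 when 1 parotid replicate was left out. The 1.78 is against parotid 2 alone, where Serpini1 was not detected, and the Serpina9 difference is from day 14 levels below background, so neither sign is a measured direction. Quantile scaling moved the median of all genes to 0.11 in tumour against parotid and to 0.13 against submandibular gland. Of 36 called differences 31 kept their call with the deposited log2 values, 30 with quantile scaling, 20 with normexp and 27 with the slide block.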
